A study of Rattus norvegicus with 18 samples.

Results

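The genes of glycolysis and of the transcriptional response to low oxygen were followed in glial cells exposed to amyloid-β (Aβ) fibrils. The members came from a list of 37 gene symbols, and 36 of these were found among the 17930 symbols of the count tables. No row carried the symbol Egln1, and that gene was not analysed here. RNA was sequenced from primary astrocytes and primary microglia of the wild-type rat brain, in 18 libraries that form 6 groups of 3. In each cell type the groups were untreated control cells, cells exposed for 24 h to fibrils of wild-type Aβ42, and cells exposed for the same time to fibrils of wild-type Aβ40. By the study's methods, both kinds of cell came from cortical mixed glial cultures of Sprague-Dawley pups at postnatal day 2, and the fibrils were given at 25 µM. Cultured neonatal glia are a model without neurons, vessels or blood flow. Only RNA was read in these libraries, so protein, glucose uptake, lactate and the flow through the pathway were not measured. The sources used here do not say whether the 3 replicates of a group came from separate cultures or animals, so the p-values measure the spread between these libraries, which may be technical.

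Glycolysis is the chain of enzymes that splits glucose into pyruvate with a small yield of ATP. Glucose enters through the carrier GLUT1, encoded by Slc2a1. Hexokinases phosphorylate it, and phosphofructokinase commits it to the pathway under the control of the Pfkfb enzymes. Lactate dehydrogenase then reduces pyruvate to lactate, which leaves or enters the cell through the monocarboxylate carriers of the Slc16a family, while the Pdk kinases restrain the entry of pyruvate into mitochondria. When oxygen is low, the factors HIF-1α (Hif1a) and HIF-2α (Epas1) escape the prolyl hydroxylases of the Egln family and raise many of these genes together with Bnip3, Adm and P4ha1. Activated microglia and macrophages are known for a raised glycolysis, and astrocytes for the lactate that they release.

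Hypoxia-inducible factors bind DNA at a short core written ACGTG or GCGTG, read as CACGT or CACGC on the other strand. The 250 bases before the start of 6 members are shown from RefSeq in the build GRCr8, because Slc2a1 and Ldha encode the entry of glucose and the lactate step, and Aldoc, Slc16a3, Egln3 and Bnip3 were the members that differed most between the fibrils in microglia. Capitals mark each match of the core on either strand, and overlapping matches run together. The stretches lie at chr5:138002272-138002521 on the plus strand for Slc2a1, chr1:106507842-106508091 plus for Ldha, chr10:63715294-63715543 plus for Aldoc, chr1:203154963-203155212 minus for Bnip3, chr10:106712078-106712327 plus for Slc16a3 and chr6:77411016-77411265 minus for Egln3.
Slc2a1: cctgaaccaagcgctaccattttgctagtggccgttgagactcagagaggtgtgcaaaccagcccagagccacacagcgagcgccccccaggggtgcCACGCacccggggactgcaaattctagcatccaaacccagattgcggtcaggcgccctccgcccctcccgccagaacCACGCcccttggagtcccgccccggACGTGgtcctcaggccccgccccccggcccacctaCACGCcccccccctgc
Ldha: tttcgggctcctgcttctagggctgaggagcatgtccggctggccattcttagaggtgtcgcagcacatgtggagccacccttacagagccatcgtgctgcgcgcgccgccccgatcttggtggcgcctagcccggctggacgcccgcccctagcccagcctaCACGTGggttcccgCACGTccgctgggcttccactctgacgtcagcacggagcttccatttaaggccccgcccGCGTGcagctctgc
Aldoc: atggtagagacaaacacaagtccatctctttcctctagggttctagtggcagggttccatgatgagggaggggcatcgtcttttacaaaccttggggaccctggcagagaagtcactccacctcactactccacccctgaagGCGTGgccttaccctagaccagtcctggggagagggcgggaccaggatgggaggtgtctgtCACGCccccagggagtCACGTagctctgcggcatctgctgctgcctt
Bnip3: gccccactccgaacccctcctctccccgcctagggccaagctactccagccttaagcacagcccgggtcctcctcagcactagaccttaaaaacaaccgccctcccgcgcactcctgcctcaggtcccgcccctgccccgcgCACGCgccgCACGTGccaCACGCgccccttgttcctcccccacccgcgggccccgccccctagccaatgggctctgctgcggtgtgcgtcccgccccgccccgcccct
Slc16a3: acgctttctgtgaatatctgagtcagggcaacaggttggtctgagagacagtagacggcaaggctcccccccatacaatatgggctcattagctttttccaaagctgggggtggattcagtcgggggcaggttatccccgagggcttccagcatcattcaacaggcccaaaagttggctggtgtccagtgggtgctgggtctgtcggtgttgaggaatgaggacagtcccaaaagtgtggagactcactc
Egln3: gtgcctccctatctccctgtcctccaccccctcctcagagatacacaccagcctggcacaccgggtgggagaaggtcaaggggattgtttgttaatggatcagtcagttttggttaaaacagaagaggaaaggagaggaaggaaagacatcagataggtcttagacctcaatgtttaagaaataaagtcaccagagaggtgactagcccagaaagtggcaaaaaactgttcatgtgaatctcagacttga
The core began at 4 places in Slc2a1, Ldha and Bnip3 and at 3 in Aldoc, and it was not in these windows of Slc16a3 and Egln3. Among the 35 listed genes with an entry in the promoter table, 23 held at least 1 match. Counted by promoter, 24 of 39 (61.5%) held a match, against 36.7% of all 33469 promoters of the table at the same length. A match is a string of letters in the current assembly, and binding was not measured in this series.

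The counts on genes ranged from 3674043 to 19013919 in the astrocyte libraries and from 2271834 to 22274367 in the microglia libraries. Levels are given as CPM, counts per 1000000 counts of a library after TMM scaling within its cell type, and they are not corrected for gene length. The limit of 3 counts corresponds to 0.135 to 1.32 CPM and covers counting error only. Of the 36 genes found, 35 passed the filter on low counts in astrocytes and 34 in microglia. Slc2a3, the neuronal glucose carrier GLUT3, passed in neither cell type and had at most 3 counts in any library, and Pdk4 was too low to test in microglia. The summed CPM of 8 astrocyte markers was 8517 to 10216 in control astrocytes and 195 to 219 in control microglia. The summed CPM of 9 microglial markers was 5475 to 6317 in control microglia and 246 to 297 in control astrocytes, so that each marker list was far higher in the cells of its label. Whether the low level in the other cells came from their own expression or from RNA of another cell type was not tested. Markers of the oligodendrocyte lineage were present in both, at 1722 to 2569 CPM in control astrocytes and 1957 to 2160 CPM in control microglia. Fewer cells of a type and less RNA per cell cannot be told apart in such bulk samples.

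Before any fibril was added, members of the same family differed in level between the 2 cell types, some in opposite directions. In control microglia 13 of 35 tested members were higher and 13 were lower than in control astrocytes. These counts lie near the 34.2% and 34.5% of all 11581 genes tested in the joint fit of 18 libraries. Microglia were higher in Hk3, Slc16a7, Slc16a3 and Hk2, and astrocytes in Egln3, Pdk4, Epas1, Aldoc and Pfkm. On the joint CPM scale, Egln3, a prolyl hydroxylase, was at 229 ± 33.7 in control astrocytes and 6.90 ± 0.560 in control microglia (SD, n = 3; log2 difference -5.04, SE 0.19, edgeR adjusted p = 2.96e-14). Epas1 was at 254 ± 28.1 in control astrocytes and 16.1 ± 1.98 in control microglia (log2 difference -3.99, SE 0.12, edgeR adjusted p = 3.18e-15), while Hif1a was 2.35-fold higher in microglia (log2 difference 1.23, SE 0.19, edgeR adjusted p = 8.79e-06). The hexokinases divided in the same way. Hk1, the widely expressed form, was lower in microglia (log2 difference -1.63 ± 0.13, SE after the ± sign), and Hk2 and Hk3 were higher (log2 2.80 ± 0.14 and 5.24 ± 0.22). Hk3 is a form known from myeloid cells. Of the lactate carriers, Slc16a1 was lower in microglia (log2 -1.24 ± 0.10), and Slc16a3 and Slc16a7 were higher (log2 4.53 ± 0.49 and 4.54 ± 0.27). Aldoc, the aldolase that marks astrocytes in the brain, was 8.92-fold lower in microglia (log2 difference -3.16, SE 0.19, edgeR adjusted p = 1.73e-11), and Slc2a1 was 2.13-fold lower (log2 difference -1.09, SE 0.18, edgeR adjusted p = 1.97e-05). Ldha, Gapdh, Eno1, Pgam1, Pfkl, Tpi1, Eno2, Pdk1 and Adm did not pass the test between the untreated cell types, and for Ldha the log2 difference was 0.13 with a 95% interval of -0.18 to 0.45. Cell type and library preparation cannot be told apart in this comparison, and scaling by library totals moved the median of all genes by -0.28 (log2). The astrocyte libraries were counted over 17307 symbols and the microglia libraries over 17327, with 16704 in both. The 2 sets of symbols therefore differ, as with Irg1 of the microglia libraries, which stands as Acod1 in the astrocyte libraries. Whether genes under a shared symbol were defined differently for the 2 cell types was not tested.

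**Figure D1:**
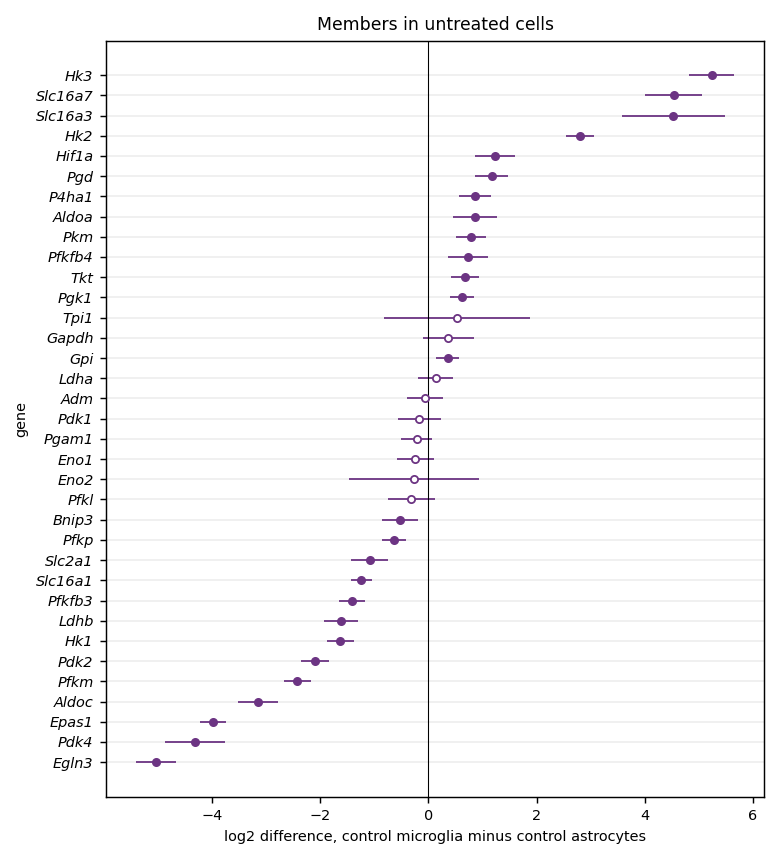
Log2 difference between control microglia and control astrocytes for the 35 tested members (x axis; positive is higher in microglia), with genes ordered by that difference (y axis). Points are the fitted values from 3 against 3 libraries, bars are 1.96 standard errors, and filled points passed an adjusted p of 0.05. The differences run from -5.04 for Egln3 to 5.24 for Hk3, with 13 genes called on each side.

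In microglia, both fibrils raised the RNA of most members, from the glucose carrier Slc2a1 to the lactate carrier Slc16a3. With Aβ42 fibrils 25 of 34 tested members rose and 2 fell, against 27.1% and 26.6% of all 10837 genes tested. With Aβ40 fibrils 20 rose and 6 fell, against 19.6% and 21.4% of all genes. The median log2 fold change of the members was 0.98 with Aβ42 and 0.58 with Aβ40, where the medians over all genes tested were 0.0096 and 0.0054. At 2-fold or more, 17 members rose with Aβ42 (11.4% of all genes did) and 8 with Aβ40 (8.95%). The 20 members that rose with both fibrils included the glucose carrier, all 6 tested enzymes of lower glycolysis, Ldha, 2 lactate carriers, both HIF α subunits, Egln3, Bnip3 and Adm. Both comparisons use the same 3 control libraries, and the overlap between them was not counted over all genes. Without any 1 of the 9 libraries, the numbers that rose were 23 to 26 with Aβ42 and 16 to 21 with Aβ40.

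**Figure D2:**
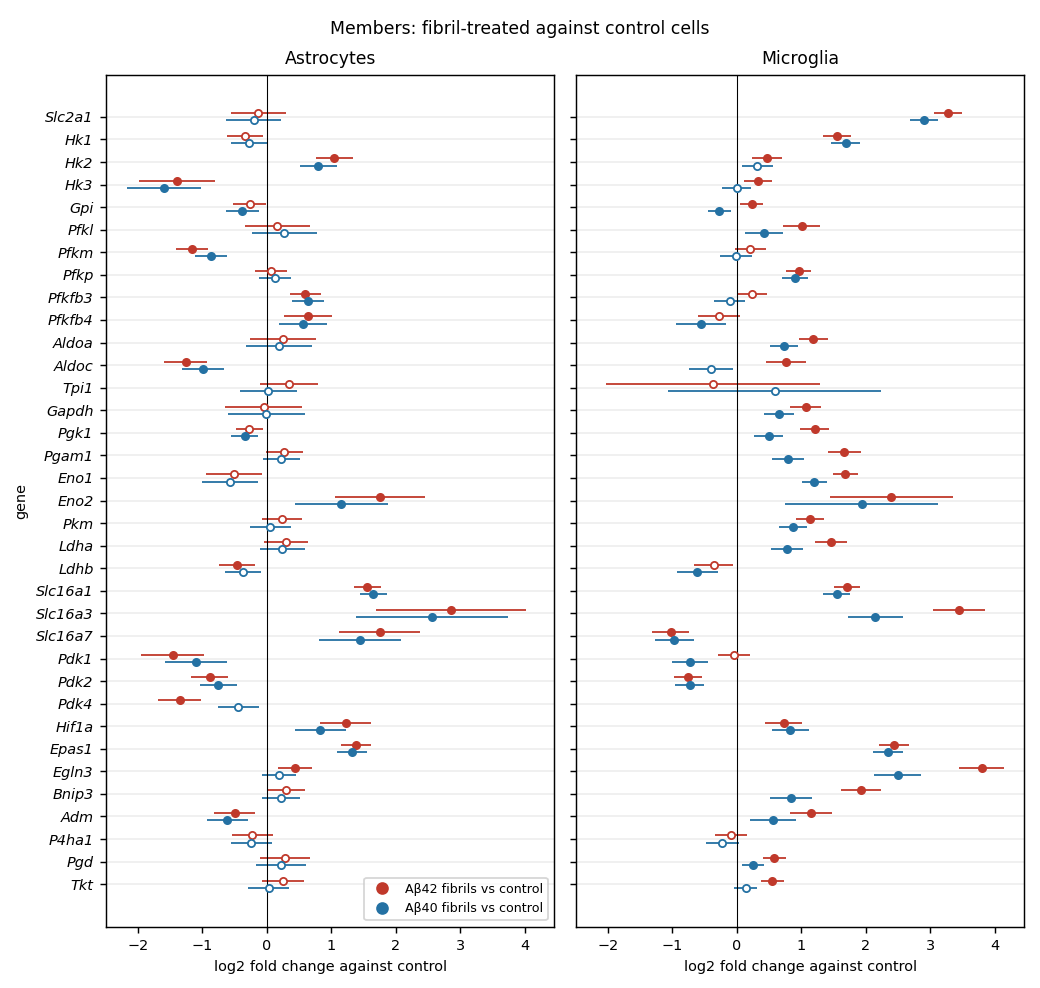
Log2 fold change against control (x axis) for each tested member (y axis, in pathway order) in astrocytes (left) and microglia (right), with Aβ42 fibrils in red and Aβ40 fibrils in blue. Points are fitted values from 3 against 3 libraries, bars are 1.96 standard errors, and filled points passed an adjusted p of 0.05. In microglia 25 members were called higher with Aβ42 and 20 with Aβ40, and in astrocytes 10 and 9.

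Among the genes of glycolysis itself, the glucose carrier gene Slc2a1 showed the largest change in RNA. Slc2a1 stood at 110.5, 112 and 101 CPM in the microglia control libraries, at 1108, 929.7 and 1090.3 with Aβ42 fibrils and at 789, 801 and 837 with Aβ40 fibrils. All fibril-treated libraries lay far above the controls, by 9.66-fold with Aβ42 (log2 fold change 3.27, SE 0.11, edgeR adjusted p = 7e-10) and by 7.50-fold with Aβ40 (log2 fold change 2.91, SE 0.11, edgeR adjusted p = 1.62e-09). Slc2a3 stayed at 0 to 3 counts in every microglia library. Hk1, which holds glucose inside the cell as its phosphate, was at 195, 185 and 169.6 CPM in the controls, 609, 472 and 534 with Aβ42 and 583, 581 and 606 with Aβ40. The groups did not overlap with the controls, and Hk1 rose 2.93-fold and 3.22-fold (log2 fold change 1.55, SE 0.11, edgeR adjusted p = 2.81e-07 with Aβ42 and log2 fold change 1.69, SE 0.11, edgeR adjusted p = 1.75e-07 with Aβ40). Hk2, the inducible hexokinase, was at 103, 93.9 and 108 CPM in controls, 159, 118 and 146 with Aβ42 and 128, 123 and 130.1 with Aβ40. Every treated library was again above the controls, but the step was small, with a rise that passed for Aβ42 (log2 fold change 0.46, SE 0.12, edgeR adjusted p = 0.00606) and not for Aβ40 (log2 fold change 0.32, SE 0.12, edgeR adjusted p = 0.0535). Hk3 was at 266, 276 and 294 CPM in controls, 294, 369 and 382 with Aβ42 and 274, 266 and 296 with Aβ40. Aβ42 replicate 1 did not exceed the highest control, and the rise with Aβ42 was 0.32 ± 0.11 on the log2 scale (edgeR adjusted p = 0.0294), which did not pass without control replicate 1 or 2 or without Aβ42 replicate 2 or 3 (adjusted p from 0.065 to 0.12).

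Of the 7 tested enzymes of upper glycolysis, 5 rose with Aβ42 fibrils. Pfkl, the liver-type phosphofructokinase, was at 163, 170.2 and 165 CPM in controls, 244, 363 and 387 with Aβ42 and 219, 238 and 211 with Aβ40. All treated libraries exceeded the controls, with a rise of 2.01-fold with Aβ42 (log2 fold change 1.0, SE 0.15, edgeR adjusted p = 0.000131) and 1.34-fold with Aβ40 (edgeR adjusted p = 0.0387), the latter not passing without any single control or Aβ40 library (adjusted p from 0.063 to 0.13). The muscle-type form Pfkm was at 43.8, 45.2 and 43.8 CPM in controls, 42.8, 57.4 and 50.6 with Aβ42 and 42.95, 46.3 and 41.4 with Aβ40. Its groups overlapped and neither comparison passed, with log2 fold changes of 0.21 and -0.02. The platelet-type form Pfkp rose 1.94-fold and 1.88-fold. Aldoa, the main aldolase, was at 1121, 1070.3 and 1215 CPM in controls, 2274, 2536 and 2949.6 with Aβ42 and 1826, 1897 and 1933 with Aβ40. No treated library came near the controls, and the rise was 2.28-fold (log2 fold change 1.19, SE 0.11, edgeR adjusted p = 2.96e-06) and 1.66-fold (log2 fold change 0.73, SE 0.11, edgeR adjusted p = 0.000211). Aldoc was at 58.1, 58.9 and 52.01 CPM in controls, 80.8, 115 and 88.6 with Aβ42 and 41.02, 51.7 and 33.1 with Aβ40. The Aβ42 libraries lay above the controls and the Aβ40 libraries below them, with log2 fold change 0.76, SE 0.16, edgeR adjusted p = 0.00176 for Aβ42 and log2 -0.40 ± 0.17 (edgeR adjusted p = 0.0823) for Aβ40. Gpi, the isomerase of the step before phosphofructokinase, was the only member called in opposite directions by the fibrils in microglia, higher with Aβ42 (log2 0.23 ± 0.09) and lower with Aβ40 (log2 -0.27 ± 0.09). Tpi1 varied from 6.10 to 330.1 CPM among the microglia libraries and passed in neither comparison with control. In the fit without Aβ42 replicate 1 it was lower with Aβ42 than with Aβ40 (log2 difference -1.91). The regulator Pfkfb3 was at 49.9, 53.9 and 55.98 CPM in controls, 71.2, 58.1 and 61.4 with Aβ42 and 43.7, 53.2 and 51.02 with Aβ40. The Aβ42 libraries were all above the controls, but neither comparison passed (log2 0.24 ± 0.12 and -0.11 ± 0.12). Pfkfb4 fell with Aβ40 (log2 -0.55 ± 0.20) and did not pass with Aβ42 (log2 -0.28 ± 0.17).

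The genes of lower glycolysis rose as a block, with 6 of 6 tested higher with either fibril. Gapdh was at 1005, 1213 and 1204 CPM in controls, 2140.4, 2327 and 2687 with Aβ42 and 1649, 1803 and 1917 with Aβ40. Pgk1, which makes the first ATP of the pathway, was at 438, 384 and 437 CPM in controls, 838, 974 and 1094 with Aβ42 and 631, 563 and 579.6 with Aβ40. In both genes every Aβ42 library exceeded every Aβ40 library, and every Aβ40 library exceeded the controls. The rises against control were 2.09-fold and 1.57-fold for Gapdh (log2 fold change 1.07, SE 0.12, edgeR adjusted p = 1.38e-05; log2 0.65 ± 0.12 with Aβ40) and 2.31-fold and 1.41-fold for Pgk1 (log2 fold change 1.21, SE 0.12, edgeR adjusted p = 3.44e-06; log2 0.49 ± 0.12 with Aβ40). Pgam1, the phosphoglycerate mutase, was at 232, 239 and 248 CPM in controls, 603, 789 and 881 with Aβ42 and 435, 401 and 409.6 with Aβ40. Eno1, the main enolase, was at 746, 755 and 792 CPM in controls, 2279.9, 2357 and 2715 with Aβ42 and 1768, 1769 and 1731 with Aβ40. The same order of the 3 groups, without overlap, held for both, and they rose 3.17-fold and 3.21-fold with Aβ42 (log2 fold change 1.66, SE 0.13, edgeR adjusted p = 5.79e-07 for Pgam1 and log2 fold change 1.68, SE 0.10, edgeR adjusted p = 4.52e-08 for Eno1). With Aβ40 fibrils the folds were 1.73 and 2.30. Pkm, pyruvate kinase, was at 1059, 1271 and 1268 CPM in controls, 2602, 2478 and 2799 with Aβ42 and 2097, 2079 and 2393 with Aβ40. It rose 2.19-fold (log2 fold change 1.13, SE 0.11, edgeR adjusted p = 4e-06) and 1.83-fold (log2 0.87 ± 0.11), with no treated library as low as the controls. Eno2, the enolase known from neurons, was near the detection limit, with 1, 10 and 5 counts in controls, 16, 82 and 79 with Aβ42 and 14, 15 and 5 with Aβ40. Its rises of 5.26-fold and 3.83-fold passed (edgeR adjusted p = 0.00142 and 0.0222), the latter not without control replicate 1 or 3 or Aβ40 replicate 1 or 2 (adjusted p from 0.061 to 0.081). Gapdh, Pgk1, Pgam1, Eno1, Aldoa, Tpi1 and Ldha are known for processed copies elsewhere in rodent genomes, and how reads that match several places were counted is not given in the sources used here, so these levels are uncertain to that extent.

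The lactate step and its carriers followed. Ldha, the lactate dehydrogenase subunit of glycolytic tissues, was at 422, 452 and 465 CPM in controls, 999, 1236 and 1445 with Aβ42 and 793, 777 and 723 with Aβ40. The 3 groups did not overlap, and Ldha rose 2.75-fold with Aβ42 (log2 fold change 1.46, SE 0.13, edgeR adjusted p = 1.62e-06) and 1.71-fold with Aβ40 (log2 fold change 0.78, SE 0.13, edgeR adjusted p = 0.000377). Ldhb, the heart-type subunit, fell with Aβ40 (log2 -0.61 ± 0.16) and not at the threshold with Aβ42 (log2 -0.36 ± 0.15, edgeR adjusted p = 0.0646). Slc16a3 encodes MCT4, the carrier that exports lactate from glycolytic cells, and was at 7.54, 10.2 and 7.32 CPM in controls, 71.2, 89.3 and 106 with Aβ42 and 45.4, 33.1 and 30.3 with Aβ40. It rose 10.9-fold with Aβ42 (log2 fold change 3.44, SE 0.21, edgeR adjusted p = 5.02e-08), where only Egln3 among the tested members rose further, and 4.44-fold with Aβ40 (log2 fold change 2.15, SE 0.22, edgeR adjusted p = 6.58e-06), and no groups overlapped. Slc16a1, the broadly expressed carrier MCT1, was at 57.5, 57.6 and 58.9 CPM in controls, 208, 179.5 and 184 with Aβ42 and 168, 158 and 182 with Aβ40. It rose with either fibril, 3.28-fold (log2 fold change 1.71, SE 0.10, edgeR adjusted p = 5.45e-08) and 2.92-fold (log2 fold change 1.55, SE 0.10, edgeR adjusted p = 1.87e-07). Slc16a7, the high-affinity carrier MCT2, went the other way, at 62.4, 64.5 and 62.8 CPM in controls, 41.6, 27.2 and 28.7 with Aβ42 and 31.6, 34.00 and 30.8 with Aβ40. It fell 2.03-fold and 1.96-fold (edgeR adjusted p = 9.93e-05 and 0.000273), and all treated libraries were below the controls. Slc16a7 and Pdk2 were the 2 members lower with both fibrils in microglia.

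No Pdk kinase was called higher against control in microglia. Pdk1 was at 39.6, 38.2 and 35.4 CPM in controls, 40.8, 34.7 and 36.1 with Aβ42 and 23.2, 25.5 and 18.4 with Aβ40. The Aβ42 libraries overlapped with the controls (log2 -0.04 ± 0.13), and the Aβ40 libraries were all lower (log2 fold change -0.73, SE 0.14, edgeR adjusted p = 0.00122). Pdk2 fell with both fibrils (log2 -0.75 ± 0.11 and -0.73 ± 0.12). Pdk4 had 1 to 9 counts in the microglia libraries and was not tested there.

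Both HIF α genes rose, Epas1 far more than Hif1a. Hif1a was at 278, 299 and 273 CPM in controls, 604, 391 and 415 with Aβ42 and 529.9, 471 and 508 with Aβ40. All treated libraries were above the controls, with a rise of 1.65-fold (log2 fold change 0.73, SE 0.15, edgeR adjusted p = 0.00144) and 1.78-fold (log2 fold change 0.83, SE 0.15, edgeR adjusted p = 0.000725). Epas1 was at 14.02, 16.4 and 13.1 CPM in controls, 80.8, 78.1 and 76.98 with Aβ42 and 69.98, 75.1 and 75.4 with Aβ40. It rose 5.43-fold (log2 fold change 2.44, SE 0.12, edgeR adjusted p = 7.37e-09) and 5.08-fold (log2 fold change 2.34, SE 0.12, edgeR adjusted p = 1.61e-08). Egln3, whose product hydroxylates HIF α and whose gene is itself a HIF target, was at 6.48, 5.60 and 6.56 CPM in controls, 73.6, 84.5 and 101 with Aβ42 and 39.8, 36.5 and 28.04 with Aβ40. Its rise of 13.9-fold with Aβ42 was the largest of any tested member (log2 fold change 3.80, SE 0.18, edgeR adjusted p = 5.65e-09), and with Aβ40 it was 5.63-fold (log2 fold change 2.49, SE 0.19, edgeR adjusted p = 4.5e-07). Epas1 and Egln3 were high in control astrocytes. The summed astrocyte markers of the microglia libraries were at 195 to 219 CPM in controls, 153 to 185 with Aβ42 and 202 to 209 with Aβ40. Of 7 tested astrocyte markers 2 were higher and 1 was lower with Aβ42, and 3 were higher and 1 was lower with Aβ40. The summed fibroblast markers were at 55.4 to 67.8, 134 to 162 and 119 to 125 CPM in the same order, with at most 1 of 5 at 0 in a library, and 3 of 4 tested were higher with Aβ42 and 2 higher and 1 lower with Aβ40. The summed oligodendrocyte lineage markers were at 1957 to 2160, 2180 to 2829 and 2202 to 2660 CPM, with 5 of 7 higher and 1 lower with Aβ42 and 4 higher and 1 lower with Aβ40. The summed neuron markers were at 247 to 263, 262 to 321 and 328 to 354 CPM, with 1 of 5 higher with either fibril. The summed microglial markers went from 5475 to 6317 CPM in controls to 1608 to 1915 with Aβ42 and 1855 to 2057 with Aβ40, with 7 of 9 lower and 1 higher with Aβ42 and 8 lower and 1 higher with Aβ40. The part of these markers in the results for microglia was not tested.

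Of the hypoxia targets on the list, Bnip3 and Adm rose and P4ha1 did not pass. Bnip3, a mitophagy receptor, was at 21.7, 29.4 and 27.1 CPM in controls, 76.8, 104 and 109.5 with Aβ42 and 45.1, 50.3 and 42.3 with Aβ40. The order was control, Aβ40 and Aβ42 without overlap, with rises of 1.78-fold (log2 fold change 0.83, SE 0.17, edgeR adjusted p = 0.00152) and 3.78-fold (log2 fold change 1.92, SE 0.16, edgeR adjusted p = 8.78e-07). Adm, the vasodilator adrenomedullin, was at 14.5, 11.01 and 14.8 CPM in controls, 33.2, 28.6 and 29.9 with Aβ42 and 24.4, 18.6 and 16.1 with Aβ40. It rose 2.23-fold with Aβ42 (log2 fold change 1.15, SE 0.17, edgeR adjusted p = 0.000101) and 1.48-fold with Aβ40 (edgeR adjusted p = 0.0266), which did not pass without control replicate 2 or Aβ40 replicate 1 (adjusted p = 0.071 and 0.17). P4ha1, a collagen prolyl hydroxylase, had log2 fold changes of -0.09 and -0.23. The pentose phosphate enzymes Pgd and Tkt rose with Aβ42 by 0.58 and 0.55 on the log2 scale, and Pgd also with Aβ40 by 0.25.

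**Figure D3:**
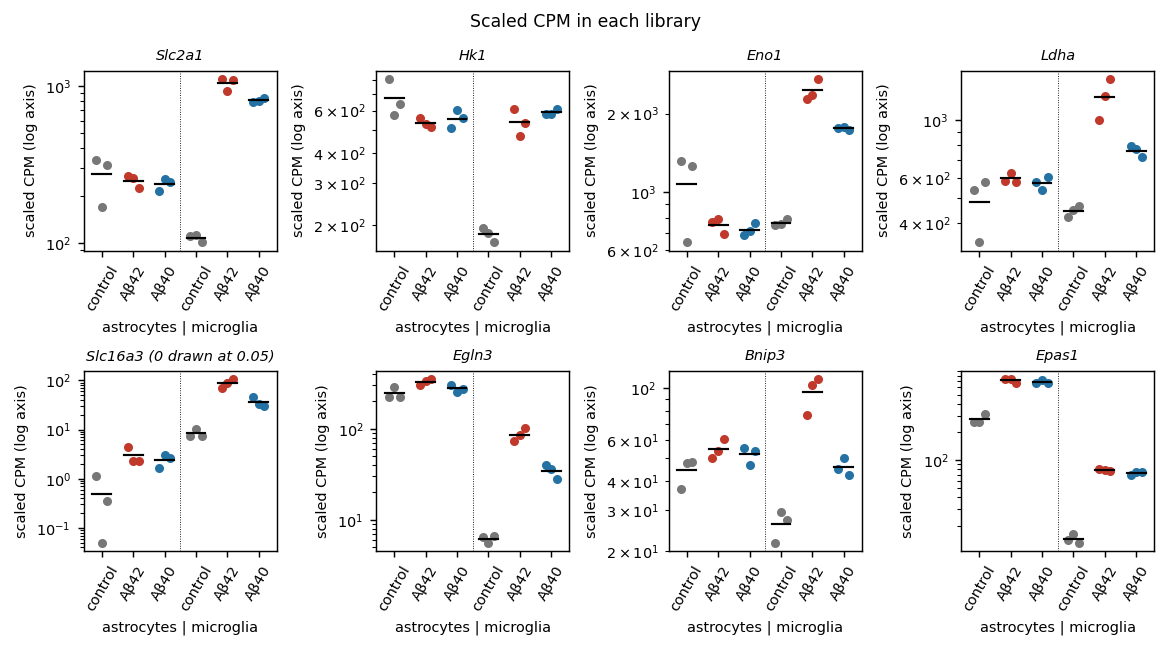
Scaled CPM of 8 members in each of the 18 libraries (y axis, log scale), by cell type and treatment (x axis; astrocytes left and microglia right of the dotted line). Each point is 1 library, the horizontal line is the mean of 3, and a value of 0 is drawn at 0.05. In microglia the 6 fibril-treated libraries of each gene shown lie above the 3 controls, and for Slc2a1, Eno1, Ldha, Slc16a3, Egln3 and Bnip3 the Aβ42 libraries lie above the Aβ40 libraries as well.

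Aβ42 fibrils raised the RNA of many members further than Aβ40 fibrils in microglia. In the direct comparison 17 of 34 members were higher with Aβ42 and 0 were lower, against 11.3% and 9.01% of all genes tested. The difference was positive in 29 members (51.2% of all genes), and in 21 of them every Aβ42 library exceeded every Aβ40 library (14.8% of all genes). Of the 17 members, 16 also rose against control with Aβ42 and 13 of these with Aβ40. The tests share the same Aβ42 or Aβ40 libraries, so they are not independent, and this overlap was not counted over all genes. The 4 that differed 2-fold or more (2.33% of all genes were higher by that much) were Egln3 (2.47-fold, log2 difference 1.30, SE 0.15, edgeR adjusted p = 0.00284), Slc16a3 (2.45-fold, log2 difference 1.29, SE 0.19, edgeR adjusted p = 0.00583), Aldoc (2.24-fold, log2 difference 1.17, SE 0.17, edgeR adjusted p = 0.00583) and Bnip3 (2.12-fold, log2 difference 1.08, SE 0.16, edgeR adjusted p = 0.00583). Pgam1 and Pgk1 followed with 1.83-fold and 1.64-fold (log2 difference 0.87, SE 0.13, edgeR adjusted p = 0.0061 for Pgam1 and log2 difference 0.71, SE 0.12, edgeR adjusted p = 0.00749 for Pgk1). Pdk1, Ldha, Adm, Pfkl, Gpi, Eno1, Aldoa, Gapdh, Tkt, Slc2a1 and Pgd were also higher with Aβ42, by 0.69, 0.68, 0.59, 0.58, 0.50, 0.48, 0.46, 0.41, 0.41, 0.37 and 0.33 on the log2 scale. Hk1, Epas1 and Slc16a1, which rose with both fibrils, were not called between them, and their log2 differences had 95% intervals of -0.35 to 0.08, -0.11 to 0.31 and -0.03 to 0.36. Of the 16 higher members with an entry in the promoter table, 10 held the HIF core, a share close to the 23 of all 35 listed genes with an entry.

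The count of members that differed between the fibrils depended on which libraries were in the fit. Aβ42 replicate 1 had 2613723 counts, against 22274367 and 17687416 in the other Aβ42 libraries. The Aβ40 libraries had 4104702, 4425805 and 2271834, and the part of depth in the difference between the fibrils was not tested. Aβ42 replicate 1 was the lowest of its group for 15 of 34 tested members, among them Ldha, Pgk1, Pgam1, Eno1, Slc16a3, Egln3 and Bnip3. It was the highest for 17, among them Slc2a1, Hk1, Hif1a and Epas1. Without it 22 members were higher and 3 were lower with Aβ42, where 53.8% of all genes were called, and the 17 were all among the 22. The 3 lower members were Tpi1, Hif1a and Hk1, at -1.91, -0.32 and -0.23 on the log2 scale. Without 1 control library the number higher was 13, 16 or 14, where 9.57% to 14.6% of all genes were called. Without another treated library it was 8 (Aβ42 replicate 2), 6 (Aβ42 replicate 3), 6 (Aβ40 replicate 1), 7 (Aβ40 replicate 2) or 6 (Aβ40 replicate 3), where 0.905% to 1.38% of all genes were called. Aldoc, Bnip3, Egln3, Pgam1, Pgk1 and Slc16a3 were called in each of the 9 fits that left out 1 library. When the fit held the Aβ42 and Aβ40 libraries only, 6 members were called, where 1.02% of all genes were.

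**Figure D4:**
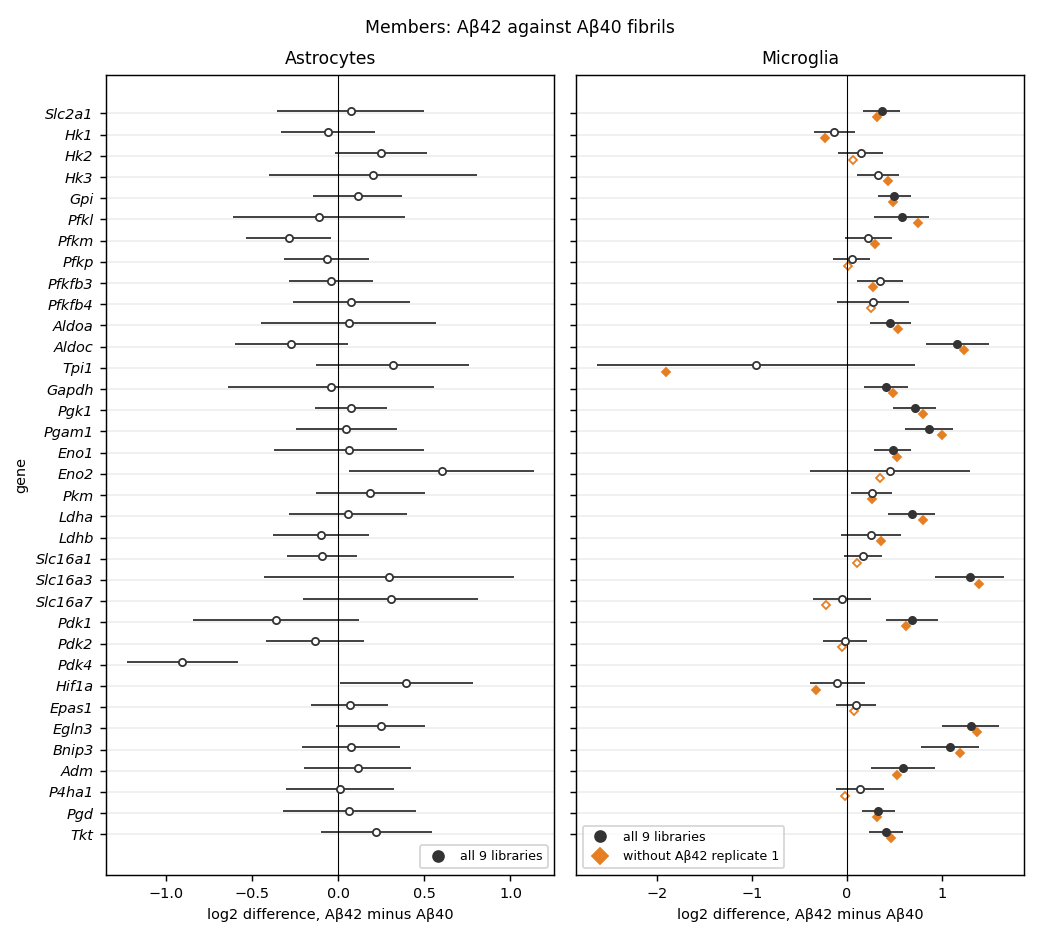
Log2 difference between cells given Aβ42 and cells given Aβ40 fibrils (x axis; positive is higher with Aβ42) for each tested member (y axis) in astrocytes (left) and microglia (right). Circles are fitted values from 3 against 3 libraries with bars of 1.96 standard errors, orange diamonds are the values without microglia Aβ42 replicate 1, and filled symbols passed an adjusted p of 0.05. In microglia 17 circles are filled, all to the right of 0, and in astrocytes 0 are filled.

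In astrocytes members moved in both directions. With Aβ42 fibrils 10 of 35 tested members rose and 8 fell, against 16.5% and 20.4% of all 11690 genes tested. With Aβ40 fibrils 9 rose and 8 fell, against 14.9% and 18.4%. The median log2 fold changes of the members were 0.24 and 0.05, where those of all genes tested were -0.0047 and 0.0017. The members that rose with both fibrils were Hk2, Pfkfb3, Pfkfb4, Eno2, Slc16a1, Slc16a3, Slc16a7, Hif1a and Epas1, and those that fell with both were Hk3, Pfkm, Aldoc, Pdk1, Pdk2 and Adm. Both comparisons share the control libraries, and these overlaps were not counted over all genes. In astrocyte control replicate 2, 34.2% of the counts were on no gene or on several. Of the 18 enzymes from hexokinase to lactate dehydrogenase, 17 were lowest of the controls there, which was not counted over all genes. Aβ42 replicate 3 and Aβ40 replicate 1 had the highest such percent of their groups (27.4% and 27.6%). Their summed shares of the 18 enzymes were the lowest of their groups (0.643% and 0.634%). Over all genes tested, deviations from the group mean in these libraries correlated with control replicate 2 (0.58 and 0.53) and with each other (0.57). The cause was not tested. Without control replicate 2, 13 members fell with Aβ42, namely the 8 and Eno1, Gpi, Hk1, Pgk1 and Slc2a1, while 10 rose. The share of all genes called in either direction went from 37% to 46.9%. With Aβ40 the numbers without it were 12 lower and 9 higher, where the share of all genes went from 33.3% to 41.8%, and without Aβ40 replicate 2 the number lower was 5 and that share 27.3%. At 2-fold or more, 7 members rose and 5 fell with Aβ42 (8% and 11.8% of all genes), and 5 rose and 2 fell with Aβ40 (7.37% and 10.4%).

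At the entry of glucose Slc2a1 was not called in astrocytes, while 1 hexokinase rose and 1 fell. Slc2a1 was at 336, 168 and 314 CPM in the astrocyte controls, 267, 257 and 224 with Aβ42 and 214, 254 and 243 with Aβ40. The groups overlapped, and the 95% interval of the log2 fold change was -0.56 to 0.30 with Aβ42 and -0.63 to 0.23 with Aβ40. Without control replicate 2 both comparisons passed, with Slc2a1 lower (adjusted p = 0.012 and 0.0047). Hk1 was at 813, 573 and 636 CPM in controls, 559, 529 and 512 with Aβ42 and 507, 601 and 559 with Aβ40. Its log2 fold changes were -0.34 ± 0.14 and -0.28 ± 0.14 and did not pass (edgeR adjusted p = 0.0841 and 0.157). Hk2 was at 18.1, 15.8 and 17.9 CPM in controls, 36.8, 33.9 and 36.6 with Aβ42 and 25.7, 33.5 and 31.01 with Aβ40. All treated libraries were higher, by 2.07-fold (log2 fold change 1.05, SE 0.15, edgeR adjusted p = 0.000207) and 1.74-fold (log2 fold change 0.80, SE 0.15, edgeR adjusted p = 0.00146). Hk3 was at 10.3, 5.03 and 10.3 CPM in controls, 4.05, 2.73 and 3.003 with Aβ42 and 1.97, 3.16 and 3.32 with Aβ40. It fell 2.63-fold and 3.02-fold (edgeR adjusted p = 0.00368 and 0.00164). The 9 microglial markers fell with it in these libraries, from a summed 246 to 297 CPM in controls to 18.6 to 23.6 with Aβ42 and 14.4 to 17.1 with Aβ40, with 9 of 9 called lower and at most 1 at 0 in a library, and their part in the fall of Hk3 was not tested.

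Further down the chain, Pfkm and Aldoc fell, both of them genes that were higher in control astrocytes than in control microglia. Pfkm was at 306, 244 and 296 CPM in controls, 133, 122 and 124 with Aβ42 and 139, 160.3 and 163 with Aβ40. All treated libraries were lower, by 2.23-fold (log2 fold change -1.16, SE 0.13, edgeR adjusted p = 3.48e-05) and 1.83-fold (log2 fold change -0.87, SE 0.13, edgeR adjusted p = 0.000304). Aldoc was at 668, 438 and 688 CPM in controls, 262, 257 and 231 with Aβ42 and 274, 309 and 323 with Aβ40. It fell 2.39-fold (log2 fold change -1.26, SE 0.17, edgeR adjusted p = 0.000154) and 1.98-fold (log2 fold change -0.99, SE 0.17, edgeR adjusted p = 0.000935). The summed astrocyte markers went over the same groups from 8517 to 10216 CPM to 5499 to 5765 and 6086 to 6416, with 5 of 8 lower and 2 higher with Aβ42 and 5 lower and 3 higher with Aβ40. The oligodendrocyte lineage markers went from 1722 to 2569 CPM to 1267 to 1369 and 1343 to 1363, with 5 of 7 lower with either fibril. The neuron markers went from 125 to 168 CPM to 55.0 to 66.4 and 66.6 to 70.8, with 4 of 5 lower, and the fibroblast markers from 168 to 189 CPM to 63.7 to 85.3 and 105 to 123, with 2 of 5 lower. The part of these markers in the fall of Aldoc was not tested. Pfkl was at 301, 136 and 300.2 CPM in controls, 305, 273 and 249.8 with Aβ42 and 247, 331 and 315 with Aβ40, and Aldoa was at 932, 401 and 899 CPM in controls, 953, 942 and 764 with Aβ42 and 766, 880.4 and 907 with Aβ40. In both genes control replicate 2 was far below the other controls and neither comparison passed. Of the other enzymes of upper glycolysis, Gpi fell with Aβ40 (log2 fold change -0.38, SE 0.13, edgeR adjusted p = 0.0468), and Pfkp and Tpi1 were not called. Pfkfb3, whose product drives phosphofructokinase, was at 140.3, 183 and 182 CPM in controls, 265, 253 and 248 with Aβ42 and 256, 271 and 261 with Aβ40. It rose 1.51-fold (log2 fold change 0.60, SE 0.12, edgeR adjusted p = 0.00307) and 1.56-fold (log2 fold change 0.64, SE 0.12, edgeR adjusted p = 0.00224) without overlap, and Pfkfb4 rose with it (1.56-fold and 1.48-fold).

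Of the 6 enzymes of lower glycolysis in astrocytes, Eno2 was called with both fibrils, Pgk1 with Aβ40 and no other. Gapdh was at 1302, 527 and 1331 CPM in controls, 1179, 1073 and 808 with Aβ42 and 816, 1209 and 1125 with Aβ40. Eno1 was at 1322, 643 and 1255 CPM in controls, 772, 792 and 691 with Aβ42 and 685, 709 and 766 with Aβ40. Control replicate 2 was again the lowest control in both, and the log2 fold changes with Aβ42 were -0.05 ± 0.31 for Gapdh and -0.51 ± 0.22 for Eno1 (edgeR adjusted p = 0.922 and 0.0955). Without that library Eno1 fell with both fibrils (adjusted p = 2.3e-05 and 1.3e-05). Pgk1 was at 327, 300.1 and 346 CPM in controls, 265, 274 and 268 with Aβ42 and 262, 239 and 267 with Aβ40. All treated libraries were below the controls, and the fall passed with Aβ40 (log2 fold change -0.34, SE 0.11, edgeR adjusted p = 0.0292) and not with Aβ42 (log2 -0.27 ± 0.11, adjusted p = 0.0706). The Aβ40 call was lost without any library other than control replicate 2 (adjusted p from 0.053 to 0.13). Pgam1 was at 344, 255 and 396 CPM in controls, 409, 409 and 387 with Aβ42 and 372, 405 and 389.5 with Aβ40. Pkm was at 945, 606 and 935 CPM in controls, 1009.6, 1001 and 922 with Aβ42 and 805, 868 and 905 with Aβ40. Neither passed in astrocytes, with log2 fold changes between 0.05 and 0.27, although Pgam1 passed with Aβ42 without control replicate 3 (adjusted p = 0.034). Eno2 was near the limit, with 8, 3 and 14 counts in controls, 72, 35 and 27 with Aβ42 and 28, 41 and 43 with Aβ40. It rose 3.37-fold (edgeR adjusted p = 0.00265) and 2.23-fold (adjusted p = 0.0324), the latter not passing without control replicate 3 or Aβ40 replicate 1 or 3 (adjusted p from 0.075 to 0.18). Ldha was at 539, 338 and 576 CPM in controls, 584, 626 and 579 with Aβ42 and 578, 539 and 605 with Aβ40, a log2 fold change of 0.30 ± 0.18 and 0.24 ± 0.17 that did not pass, while Ldhb fell with Aβ42 (log2 -0.47 ± 0.14).

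The carriers of lactate rose in astrocytes, 3 of 3 with either fibril. Slc16a1 was at 159, 154 and 174 CPM in controls, 456, 486 and 495 with Aβ42 and 523, 485 and 526 with Aβ40. All treated libraries were above the controls, by 2.94-fold (log2 fold change 1.56, SE 0.11, edgeR adjusted p = 9.89e-07) and 3.14-fold (log2 fold change 1.65, SE 0.11, edgeR adjusted p = 7.62e-07). Slc16a7 was at 3.90, 5.03 and 2.11 CPM in controls, 9.89, 10.01 and 13.3 with Aβ42 and 11.4, 7.17 and 8.50 with Aβ40. It rose 3.36-fold (log2 fold change 1.75, SE 0.32, edgeR adjusted p = 0.00136) and 2.73-fold (log2 fold change 1.45, SE 0.32, edgeR adjusted p = 0.00506), the reverse of its fall in microglia. Slc16a3 had 4, 0 and 5 counts in controls, 63, 23 and 19 with Aβ42 and 16, 56 and 40 with Aβ40, or at most 4.33 CPM. It was higher in every treated library (log2 fold change 2.86, SE 0.59, edgeR adjusted p = 0.00299 with Aβ42 and log2 fold change 2.56, SE 0.60, edgeR adjusted p = 0.00675 with Aβ40), a fold that rests on 9 counts in the 3 controls and did not pass for Aβ40 without control replicate 3 (adjusted p = 0.065). The level in microglia given Aβ42 fibrils was 71.2 to 106 CPM.

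In astrocytes 3 of 3 tested Pdk kinases fell with Aβ42 and 2 with Aβ40. Pdk1 was at 37.6, 76.8 and 37.9 CPM in controls, 17.6, 18.3 and 19.1 with Aβ42 and 24.01, 22.6 and 24.2 with Aβ40. All treated libraries were lower, by 2.75-fold (log2 fold change -1.46, SE 0.25, edgeR adjusted p = 0.000888) and 2.14-fold (log2 fold change -1.10, SE 0.25, edgeR adjusted p = 0.0054), and control replicate 2 was the highest control. Pdk4, the form induced by fasting and fatty acids, was at 13.4, 18.4 and 17.2 CPM in controls, 7.28, 5.96 and 6.01 with Aβ42 and 12.4, 11.7 and 12.4 with Aβ40. It fell 2.55-fold with Aβ42 (log2 fold change -1.35, SE 0.17, edgeR adjusted p = 9.88e-05), and its change with Aβ40 missed the threshold (log2 -0.44 ± 0.16, edgeR adjusted p = 0.0579). Pdk2 fell 1.85-fold and 1.69-fold.

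Of the oxygen-sensing genes, both HIF α subunits rose in astrocytes, while 0 of the 3 targets Bnip3, Adm and P4ha1 were called higher. Hif1a was at 116, 192 and 122 CPM in controls, 286, 345 and 375 with Aβ42 and 295, 223 and 247 with Aβ40. Epas1 was at 254, 253 and 310.2 CPM in controls, 736, 730.1 and 671 with Aβ42 and 663, 713 and 668 with Aβ40. No treated library overlapped with the controls in either gene. Hif1a rose 2.34-fold (log2 fold change 1.23, SE 0.20, edgeR adjusted p = 0.000662) and 1.78-fold (log2 fold change 0.83, SE 0.20, edgeR adjusted p = 0.00816), and Epas1 rose 2.61-fold (log2 fold change 1.38, SE 0.12, edgeR adjusted p = 4.85e-06) and 2.497-fold (log2 fold change 1.32, SE 0.12, edgeR adjusted p = 7.86e-06). Egln3 was at 223, 286 and 226 CPM in controls, 303, 339 and 352 with Aβ42 and 304, 256 and 277 with Aβ40. It rose 1.35-fold with Aβ42 (log2 fold change 0.44, SE 0.13, edgeR adjusted p = 0.0245), a call that was lost without control replicate 1 or 3 or Aβ42 replicate 2 or 3 (adjusted p from 0.061 to 0.099), and did not pass with Aβ40. Bnip3 was at 37.01, 47.9 and 48.3 CPM in controls, 50.05, 53.9 and 60.4 with Aβ42 and 55.6, 46.8 and 53.8 with Aβ40, and it did not pass (log2 0.30 ± 0.15 and 0.22 ± 0.15). Adm was at 16.98, 14.1 and 18.8 CPM in controls, 10.4, 12.5 and 12.9 with Aβ42 and 11.4, 10.3 and 11.4 with Aβ40. It fell 1.41-fold and 1.53-fold (edgeR adjusted p = 0.032 and 0.0128), and without any library but control replicate 2 the Aβ42 call was lost (adjusted p from 0.051 to 0.16), as was the Aβ40 call without Aβ40 replicate 2 (adjusted p = 0.064). P4ha1, Pgd and Tkt did not pass, with log2 fold changes from -0.24 to 0.29.

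No member was called between the fibrils in astrocytes. The edgeR fit called 0 of 35 members at an adjusted p under 0.05, where 0.0855% of all genes were called, and 2 had an unadjusted p under 0.05. The log2 differences ran from -0.91 for Pdk4 to 0.60 for Eno2, and for 32 of 35 members the 95% interval lay within 2-fold in either direction. Pdk4 came nearest (log2 difference -0.91, SE 0.16, edgeR adjusted p = 0.0805), with every Aβ42 library below every Aβ40 library. It was called by DESeq2's Wald test, with only the Aβ42 and Aβ40 libraries in the fit and in the fit without control replicate 2 (adjusted p = 0.00091, 0.0098 and 0.009). In these fits 1.21%, 2.31% and 1.87% of all genes were called between the fibrils.

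The test of the difference between the cell types was made in the joint fit of 18 libraries. The response to Aβ42 was more positive in microglia for 20 of 35 members and less positive for 3, against 19.3% and 17.9% of all genes tested. The response to Aβ40 was more positive for 12 and less positive for 4, against 16% and 16.5%. The 12 were more positive with both fibrils, and 3 members were less positive with both, namely Hk2, Pfkfb4 and Slc16a7. The tests for the 2 fibrils share the control libraries, and this overlap was not counted over all genes. The largest differences were in Slc2a1 and Egln3. The response of Slc2a1 differed by 3.39 with Aβ42 and 3.09 with Aβ40 on the log2 scale (SE 0.25 for each, edgeR adjusted p = 5.33e-09 and 2.18e-08). The response of Egln3 differed by 3.36 ± 0.23 and 2.29 ± 0.24 (edgeR adjusted p = 2.57e-09 and 5.74e-07). Eno1 differed by 2.19 ± 0.25 and 1.76 ± 0.25, and Hk1 by 1.88 ± 0.18 and 1.95 ± 0.18. In the opposite direction Slc16a7 differed by -2.78 ± 0.35 and -2.45 ± 0.35. Of 34 members tested in both cell types, 7 rose in both with Aβ42 and Pdk2 fell in both, against 8.68% and 7.82% of the 10211 genes tested in both. With Aβ40, 5 rose in both and 3 fell in both, against 6.77% and 5.88%. For Slc16a1 the difference was not called, with 95% intervals of -0.12 to 0.42 and -0.40 to 0.15. Without astrocyte control replicate 2, or without microglia Aβ42 replicate 1, the number less positive with Aβ42 was 5, where 46.6% and 42.2% of all genes were called in either direction.

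Within single steps, the share of counts taken by each form gives a measure that does not depend on scaling between libraries, although it is a share of counts and not of molecules. With 3 libraries against 3, the two-sided exact permutation test cannot go below p = 0.1, and shares without overlap reach that value. Over the 66 share comparisons made, 35 reached it, and the smallest Benjamini-Hochberg adjusted p was 0.189, so none passed a correction. The 18 enzymes from hexokinase to lactate dehydrogenase took 0.708% ± 0.021 of the counts on genes in control microglia, 1.54% ± 0.16 with Aβ42 and 1.15% ± 0.016 with Aβ40 (SD, n = 3, exact p = 0.1 for each pair of groups). In astrocytes they took 0.782% ± 0.19 in controls, 0.693% ± 0.044 with Aβ42 and 0.684% ± 0.044 with Aβ40 (exact p = 0.4 against control for either fibril), and the controls were 0.875%, 0.563% and 0.908%. Without Gapdh the microglia shares were 0.593%, 1.30% and 0.969%, in the same order. The share of the 18 enzymes, unlike a share within 1 step, depends on the library total. Over totals after TMM scaling it was 0.701%, 1.54% and 1.16% in microglia, in the same order. In astrocytes the exact p against control was then 0.6 for either fibril.

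The balance of forms moved in the same way in both cell types at the lactate step. Ldha took 85.6% ± 1.3 of the Ldha and Ldhb counts in control microglia, 95.5% ± 0.71 with Aβ42 and 94.0% ± 0.66 with Aβ40. In astrocytes it took 63.4% ± 2.5, 74.9% ± 1.4 and 72.8% ± 0.87. Each of these 4 comparisons with control was without overlap (SD, n = 3, exact p = 0.1). Aldoa took 54.2% ± 5.6 of the aldolase counts in control astrocytes, 77.9% ± 0.97 with Aβ42 and 73.8% ± 0.17 with Aβ40, and it took 94.8% or more in each microglia library. Hk2 went from 2.5% ± 0.30 of the hexokinase counts in control astrocytes to 6.26% ± 0.34 and 5.09% ± 0.25. In microglia Hk3 took 49.5% ± 2.1 of the hexokinase counts in controls, 34.0% ± 5.6 with Aβ42 and 28.0% ± 0.65 with Aβ40, and Hk2 went from 18% ± 1.0 to 13.7% ± 1.3 and 12.7% ± 0.20. Slc16a3 took 6.44% ± 1.1 of the counts of the 3 lactate carriers in control microglia, 28.5% ± 5.7 with Aβ42 and 15.2% ± 3.0 with Aβ40. In astrocytes its share was at most 0.921% in any library. Hif1a took 95.1% ± 0.32 of the HIF α counts in control microglia, 85.3% ± 2.6 with Aβ42 and 87.2% ± 1.0 with Aβ40. For Aldoa and Hk2 in astrocytes, and for Hk2, Hk3, Slc16a3 and Hif1a in microglia, the exact p was 0.1 against control for either fibril (n = 3).

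**Figure D5:**
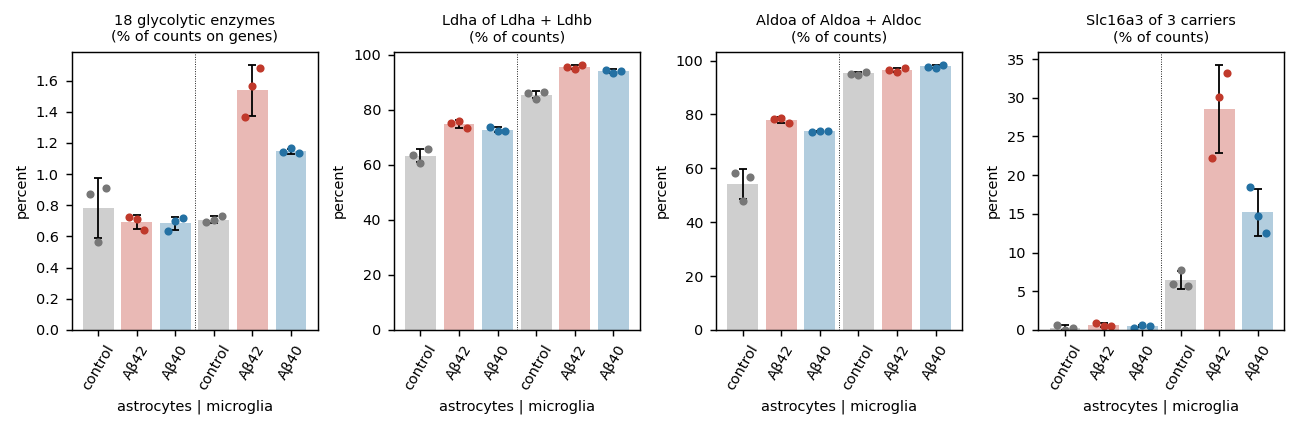
Percent of counts (y axis) in each group of 3 libraries (x axis; astrocytes left and microglia right of the dotted line) for the 18 glycolytic enzymes among all counts on genes, Ldha among Ldha and Ldhb, Aldoa among Aldoa and Aldoc, and Slc16a3 among the 3 lactate carriers. Bars are means from 0, error bars are the SD, and points are libraries. In microglia the glycolytic share went from 0.708% in controls to 1.54% with Aβ42 and 1.15% with Aβ40, and in astrocytes the groups overlap.

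Genes around the pathway were read from lists of related genes outside the members. The counts of these lists stand beside shares of all genes tested that were, in microglia, 27.1% higher and 26.6% lower with Aβ42 and 19.6% and 21.4% with Aβ40, and in astrocytes 16.5% and 20.4% with Aβ42 and 14.9% and 18.4% with Aβ40. Many of the list counts lie near these shares, and none was tested against them. Of 25 tested hypoxia targets and regulators outside the members, 13 rose and 3 fell with Aβ42 in microglia, 8 rose and 5 fell with Aβ40, and 8 were higher and 0 lower with Aβ42 than with Aβ40 (11.3% and 9.01% of all genes). In astrocytes 26 were tested, of which 7 rose and 4 fell with Aβ42 and 5 rose and 4 fell with Aβ40. Vegfa, the angiogenic factor that HIF controls, rose in microglia by 2.43 ± 0.16 with Aβ42 and 1.23 ± 0.16 with Aβ40 (log2 ± SE) and was higher with Aβ42 in the direct test (log2 difference 1.2, SE 0.16, edgeR adjusted p = 0.00429). In astrocytes Vegfa did not pass (log2 -0.12 ± 0.15 and -0.42 ± 0.15). Angptl4, a secreted inhibitor of lipoprotein lipase, rose in both cell types, by 4.38 ± 0.20 and 4.59 ± 0.20 in astrocytes and 3.53 ± 0.34 and 3.03 ± 0.40 in microglia. Stc2, the secreted stanniocalcin, fell in astrocytes (log2 -2.43 ± 0.29 and -1.31 ± 0.25).

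The list of the citric acid cycle also held genes beside the cycle, such as the cytosolic Aco1 and Irg1. Of its 20 tested genes, 2 rose and 9 fell with Aβ42 in microglia, and 1 rose and 8 fell with Aβ40. In astrocytes 1 rose and 3 fell with Aβ42, and 1 rose and 2 fell with Aβ40. In microglia the fallen genes were 45% and 40% of those tested, against 26.6% and 21.4% of all genes, and in astrocytes 15% and 10%, against 20.4% and 18.4%. Idh2, the mitochondrial isocitrate dehydrogenase, fell in microglia (log2 -1.65 ± 0.11 with Aβ42 and -1.57 ± 0.11 with Aβ40), as did the cytosolic aconitase Aco1 (log2 -1.04 ± 0.10 and -1.14 ± 0.10). Irg1, which diverts cis-aconitate to itaconate in activated macrophages and stands under its newer symbol Acod1 in the astrocyte tables, rose by 6.05 ± 0.19 and 5.93 ± 0.19 in microglia and by 5.90 ± 0.25 and 5.29 ± 0.26 in astrocytes. Of the 12 genes that take pyruvate to acetyl-CoA, 3 rose and 3 fell with Aβ42 in microglia and 2 rose and 3 fell with Aβ40. In astrocytes 3 rose with Aβ42 and 2 with Aβ40, and 0 fell. Pdp1, a phosphatase that opposes the Pdk kinases, rose in both cell types (log2 0.88 ± 0.17 in microglia and 0.81 ± 0.16 in astrocytes with Aβ42).

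Of the 8 tested pentose phosphate and NADPH genes outside the members, 5 rose and 1 fell with Aβ42 in microglia (27.1% and 26.6% of all genes did). With Aβ40 3 rose and 3 fell (19.6% and 21.4% of all genes), and 4 were higher with Aβ42 than with Aβ40 (11.3%). In astrocytes 2 rose and 1 fell with Aβ42 (16.5% and 20.4% of all genes), and 2 rose and 2 fell with Aβ40 (14.9% and 18.4%). The same shares of all genes apply to the glycogen genes and further genes of glycolysis below, where several counts lie near them. Rpia, the ribose phosphate isomerase, rose in both cell types (log2 0.98 ± 0.15 in microglia and 1.04 ± 0.13 in astrocytes with Aβ42). Me1, the cytosolic malic enzyme, rose in microglia (log2 1.62 ± 0.14 and 1.04 ± 0.14) and fell in astrocytes (log2 -0.39 ± 0.13 and -0.46 ± 0.13). Of the glycogen genes, 4 rose and 7 fell of 13 tested with Aβ42 in microglia, 3 rose and 5 fell with Aβ40, and of 15 in astrocytes 1 rose and 5 fell with Aβ42 and 1 rose and 4 fell with Aβ40. Gys1, glycogen synthase, rose in both cell types, by 1.09 ± 0.12 in microglia and 0.98 ± 0.15 in astrocytes with Aβ42. Pygm, a glycogen phosphorylase, fell in both (log2 -1.57 ± 0.32 in microglia and -2.96 ± 0.49 in astrocytes with Aβ42). Of 7 further genes of glycolysis, 2 rose and 2 fell with Aβ42 in microglia and 1 rose and 1 fell with Aβ40, and in astrocytes 1 rose and 1 fell with Aβ42 and 1 rose and 0 fell with Aβ40. Tigar, a phosphatase that restrains phosphofructokinase, rose in astrocytes with both fibrils (log2 1.09 ± 0.20 and 1.11 ± 0.20).

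Among further carriers of sugars and lactate, 3 rose and 3 fell of 10 tested with Aβ42 in microglia, near the 27.1% and 26.6% of all genes. With Aβ40 3 rose and 4 fell (19.6% and 21.4% of all genes). In astrocytes 3 rose and 3 fell of 11 tested with either fibril (16.5% and 20.4% of all genes with Aβ42, 14.9% and 18.4% with Aβ40). Slc2a6, the hexose carrier GLUT6, rose in microglia by 3.47 ± 0.27 and 2.67 ± 0.27 on the log2 scale and was higher with Aβ42 than with Aβ40 (log2 difference 0.80, SE 0.24, edgeR adjusted p = 0.0391). Slc2a5, the fructose carrier GLUT5 that marks resting microglia, fell in microglia (log2 -2.38 ± 0.28 and -2.53 ± 0.40) and in astrocytes (log2 -3.52 ± 0.51 and -3.73 ± 0.49), where the microglial markers fell over the same groups and their part in it was not tested. Slc5a1, the sodium-coupled glucose carrier SGLT1, had 0 counts in the control libraries of both cell types and averaged 2.65 CPM in astrocytes given Aβ42, 1.88 CPM in those given Aβ40, and 2.10 and 3.0 CPM in the microglia groups.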

How the data were processed

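RNA was sequenced from primary rat astrocytes and microglia in 18 libraries, 3 per group. By the study's methods, poly(A) libraries (TruSeq Stranded mRNA) were read as pairs, and the reads were aligned to rn5 with STAR; Salmon and DESeq2 are also named, without versions. The authors deposited whole-number counts per gene symbol for each library, and the strand setting and the treatment of reads that match several places are not given in the sources used here. Lines for reads on no gene or on several held 21.7% to 34.2% of a library and entered no test. Totals on genes ran from 2271834 to 22274367.

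Counts were tested with edgeR 4.0.16 (R 4.3.3) by the quasi-likelihood test with TMM scaling, filterByExpr and Benjamini-Hochberg adjustment over all genes tested. The 9 libraries of a cell type were fitted together, and all 18 for differences between cell types, over the 16704 symbols in both sets of tables. A call is an adjusted p under 0.05, and 95% intervals are 1.96 standard errors to either side. Adjusted p-values printed without a tool name are from edgeR. Shares were compared with a two-sided exact permutation test. DESeq2 1.42.0 (Wald test and size factors), library totals, other filters, a replicate block, fits of only the groups compared and fits without each library were alternatives. Steps were checked on simulated data. Members and lists were chosen with earlier results of these data known. Values of every library are given for members at 2-fold or more against control or 1.5-fold or more between fibrils (adjusted p under 0.05), and for Slc2a1, Hk2, Pfkfb3, Ldha, Slc16a3 and Hif1a. For each further list, up to 3 called genes per cell type with the largest change could be named, and a gene of the hypoxia list is counted but not reported by name here. No 2 libraries agreed within sampling noise. Promoters were read from RefSeq (GRCr8), and no coordinate of rn5 was used.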

Additional observations from a re-analysis of the deposited data

Results flagged for a closer look

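The response to the fibrils differed between the cell types for 23 members with Aβ42 and 16 with Aβ40, by edgeR's interaction term at an adjusted p under 0.05, where 19.3% and 16% of all genes tested were more positive in microglia and 17.9% and 16.5% less positive. Each value here is the log2 response in microglia minus that in astrocytes. With Aβ42 the glucose carrier and hexokinases gave 3.39 for Slc2a1, 1.88 for Hk1, 1.72 for Hk3 and -0.59 for Hk2. In upper glycolysis the values were 0.49 for Gpi, 0.84 for Pfkl, 1.36 for Pfkm, 0.89 for Pfkp, 0.93 for Aldoa, 2.01 for Aldoc and -0.91 for Pfkfb4. Lower glycolysis and the lactate step gave 1.11 for Gapdh, 1.47 for Pgk1, 1.39 for Pgam1, 2.19 for Eno1, 0.88 for Pkm and 1.16 for Ldha. The remaining members were Slc16a7 at -2.78, Pdk1 at 1.42, Epas1 at 1.05, Egln3 at 3.36, Bnip3 at 1.61 and Adm at 1.66. Pfkl was lost in 13 of the 18 fits that left out 1 library (adjusted p from 0.05 to 0.12), and Aldoa without astrocyte control replicate 3 or microglia Aβ42 replicate 3 (adjusted p = 0.053 for each).

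With Aβ40 the values were 3.09 for Slc2a1, 1.95 for Hk1, 1.58 for Hk3, -0.50 for Hk2, 0.84 for Pfkm, 0.76 for Pfkp, -0.77 for Pfkfb3 and -1.13 for Pfkfb4. Further along the pathway they were 0.82 for Pgk1, 0.55 for Pgam1, 1.76 for Eno1, 0.80 for Pkm and -2.45 for Slc16a7, and in the hypoxia response 1.01 for Epas1, 2.29 for Egln3 and 1.16 for Adm. Hk2 was lost in 9 of the 18 fits without 1 library (adjusted p from 0.057 to 0.14), and Pgam1 in 15 of them (adjusted p from 0.053 to 0.13). Hk3 and Slc16a7 were low in astrocytes, at 10.3 and 13.3 CPM or less.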

How the results depend on the processing

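Depth ranged nearly 10-fold among the microglia libraries, and 3 libraries a group limit each test. Among values of single genes within a cell type and between the control cells, 2812 kept direction and side of the threshold. Of the others, 108 lost the threshold, 43 passed it anew and 45 changed sign, all of the last from values that did not pass. The cell type differences of the responses and the shares were not in this count. The number of members called kept within 1.5 times under other scalings, other filters and the replicate block. The exceptions were 1 member lower between the fibrils in astrocytes (Pdk4) by DESeq2's Wald test and with only the groups compared (1.21% and 2.31% of all genes called), and 6 higher between the fibrils in microglia with only the groups compared (1.02% of all genes called). The cause was not tested.

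Without 1 library, the members higher and lower with Aβ42 were 8 to 10 and 6 to 13 in astrocytes and 23 to 26 and 2 to 3 in microglia. With Aβ40 they were 7 to 9 and 5 to 12 in astrocytes and 16 to 21 and 4 to 8 in microglia. Between the fibrils they were 0 and 0 to 1 in astrocytes and 6 to 22 and 0 to 3 in microglia. For the cell type difference they were 18 to 22 and 3 to 5 with Aβ42 and 11 to 16 and 3 to 4 with Aβ40, and for the control cells 13 and 12 to 16. In the same fits the share of all genes called in astrocytes was 28.4% to 46.9% with Aβ42 and 25.1% to 41.8% with Aβ40. In microglia it was 42.7% to 70.3% and 32.8% to 54%. Between the fibrils it was 0% to 1.87% in astrocytes and 0.905% to 53.8% in microglia. For the cell type difference it was 31.8% to 46.6% and 27.3% to 35.6%, and for the control cells 64% to 72.6%.

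Replicate numbers shared by groups did not pair the libraries. Same-numbered libraries correlated over 0.1 in 2 of 9 pairs in astrocytes (-0.59 to 0.40) and 1 of 9 in microglia (-0.21 to 0.24). Libraries of different number did so in 11 of 18 pairs in astrocytes (-0.52 to 0.58) and 2 of 18 in microglia (-0.23 to 0.24). Whether astrocyte libraries of different groups shared a batch, or a pairing under other numbers, was not tested. With the replicate block the members higher and lower were 9 and 7 with Aβ42 and 8 and 6 with Aβ40 in astrocytes, 24 and 3 and 20 and 6 in microglia, and 0 and 15 higher between the fibrils. With that block 31.2% and 27.5% of all genes were called in astrocytes, 50.1% and 38.7% in microglia, and 0% and 6.94% between the fibrils.

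The sign changed for Gapdh in astrocytes with Aβ40 (0.018 with no filter, 0.047 with the replicate block) and Hk3 in microglia with Aβ40 (0.011 by DESeq2 size factors, 0.010 by the Wald test, 0.0042 with only the groups compared). It changed for Hif1a in the cell type difference with Aβ40 (0.050 by DESeq2 size factors, 0.026 by library totals, 0.033 with 10 counts in every library) and Ldha between control cells (-0.14 by library totals). Without 1 library the range spanned 0 for these log2 values.
In astrocytes with Aβ42 they were -0.37 to 0.054 for Slc2a1, -0.12 to 0.34 for Pfkl, -0.039 to 0.46 for Aldoa and -0.36 to 0.16 for Gapdh. In astrocytes with Aβ40 they were -0.0069 to 0.45 for Pfkl, -0.099 to 0.39 for Aldoa, -0.32 to 0.20 for Gapdh and -0.12 to 0.16 for Pkm. Between the fibrils in astrocytes they were -0.014 to 0.15 for Aldoa, -0.20 to 0.096 for Gapdh, -0.10 to 0.47 for Slc16a3 and -0.0097 to 0.15 for Bnip3. In microglia with Aβ42 they were -0.099 to 0.016 for Pdk1. In microglia with Aβ40 they were -0.050 to 0.061 for Hk3 and -0.070 to 0.015 for Pfkm. Between the fibrils in microglia they were -0.22 to 0.068 for Slc16a7 and -0.32 to 0.014 for Hif1a. In the cell type difference with Aβ42 they were -0.0094 to 1.64 for Eno2 and -0.14 to 0.77 for Pdk4. In the cell type difference with Aβ40 they were -0.032 to 0.42 for Pfkl, -0.070 to 0.54 for Pdk1, -0.13 to 0.80 for Pdk4 and -0.29 to 0.13 for Hif1a. Between the control cells they were -1.26 to 0.40 for Eno2, -0.066 to 0.27 for Ldha, -0.38 to 0.26 for Pdk1 and -0.16 to 0.051 for Adm. The share of Pfkp in microglia with Aβ42 against control ranged from -1.25 to 3.44 percentage points and that of Hif1a in astrocytes from -5.27 to 2.16.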
